A study of Mus musculus with 16 samples.

Results

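The potassium channel genes described here were the genes of an Illumina MouseRef-8 v2 array whose symbol starts with Kcn, and 80 of the 16593 genes named by the array's probes met that rule. A gene was tested when a probe of it had a detection p-value under 0.05 on at least 8 of the 16 arrays, which held for 52 of the 80 genes and for 10244 of all 16593. The members were chosen by name and not by a measured value. By symbol they comprised 32 voltage-gated channel genes, 12 genes of auxiliary subunits, 12 inward rectifiers and 13 two-pore channels. The others were 10 genes classed with calcium- or sodium-activated channels and their beta subunits, and Kcnrg. The arrays measured hypothalamic RNA of 16 female C57BL/6J mice of the F1 generation, killed at 21 days of age, with 1 mouse per array. The 8 LUN mice (lactation undernutrition) had been suckled by mothers given 50% of the food that control mothers ate from birth to weaning, and the 8 CON mice by mothers with free access to food. Litters held 8 pups in both groups. For the F1 generation the study's methods give 8 LUN litters and 4 CON litters. Which litter a mouse came from was not stated in the sources used here, so some CON mice may be littermates, and the tests take mice as independent.

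Potassium channels let potassium ions leave the cell and so set the resting potential, end the action potential and limit how fast a neuron can fire. Voltage-gated channels open on depolarization, inward rectifiers and two-pore channels carry current near rest, and calcium-activated channels couple spiking to calcium entry. Auxiliary subunits do not form the pore but change the gating or the number of channels at the membrane. In the hypothalamus such channels are known for tuning the firing of neurons that control feeding, body temperature and reproduction.

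Values are log2 signals after background correction and quantile normalization, a change is the LUN mean minus the CON mean on that scale, and its adjusted p comes from limma with Benjamini-Hochberg adjustment over all 14870 tested probes. A gene stands for its tested probe with the highest mean. The words rose and fell are used of genes with an adjusted p under 0.05, and levels of different genes are not compared, since probes differ in brightness. The raw signal averaged 377 ± 23.6 per array in LUN and 451 ± 35.2 in CON (SD, n = 8 each), which differed by a two-sided exact permutation test (p = 0.000466), while 14540 to 15051 probes were detected on LUN arrays and 14560 to 15384 on CON arrays. LUN arrays lay at the last positions of each BeadChip (the slide that carries 8 arrays) and CON arrays at the first, so position and group cannot be told apart.

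The markers of brain regions and cell types differed between the groups and within CON. Of 15 thalamic genes tested 12 rose and none fell, with a median change of 1.15 and summed signals of 16614 to 20689 in LUN and 8472 to 20659 in CON. Many of them are named in the study's tables, which were drawn from these same arrays, so they are not independent evidence of a direction. Of 11 tested hypothalamic markers, among them Hcrt and Pmch, 7 fell and none rose, and Sim1 and Otp were below the detection limit used. The study reports Hcrt, Oxt, Avp, Pomc and Trh as lower in LUN from these same arrays, so this count is not independent evidence either. Arrays CON 4 and CON 8 stood apart from the other CON arrays, with thalamic sums of 20659 and 15634 where the other 6 had 8472 to 11967, and with hypothalamic sums of 12985 and 14754 where those 6 had 19085 to 23314. Choroid plexus genes had sums of 20257 on LUN 7 and 7565 on LUN 1, and 774 to 2322 over all CON arrays. In tissue RNA, fewer cells of a type and less RNA per cell cannot be told apart.

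Of the 52 tested potassium channel genes 8 rose in LUN, 5 fell and 39 did not pass the test. These 13 genes are 25% of the members, where 15.8% of all tested genes passed. Of all tested genes 7.17% were higher in LUN and 8.59% lower. The risen genes were Kcnc1, Kcnf1, Kcnab1, Kcnab2, Kcnip3, Kcnip4, Kcnk3 and Kcnmb4 (Kcnip3 and Kcnmb4 lay below 0 without normalization between arrays), and the fallen genes were Kcna2, Kcnh1, Kcne1l, Kcnj8 and Kcnk6. All changes were small. The range was -0.49 for Kcna2 to 0.51 for Kcnip4, and no gene reached the 1.5-fold change used in the study's methods by its brightest probe, where 1.39% of all tested genes did. With the log2 values that the authors deposited, Kcna2, Kcnip4 and Kcnj8 did, at -0.59, 0.60 and -0.81. The methods' t-test was run only on the values normalized here, so its changes were the same and none could reach 1.5-fold. The groups did not overlap for 3 genes, Kcnc1, Kcnab2 and Kcne1l, against 2.25% of all tested genes. At an unadjusted p under 0.05 there were 23 members, against 30.4% of all tested genes. The median change of the 52 members was 0.11 and that of all tested genes -0.01, with 36 members above 0 and 16 below. The median within-group SD was 0.22 over the members and 0.14 over all tested genes. By probes, 16 of 63 tested Kcn probes passed, where 15% of all tested probes did, and 1 Kcn probe, of Kcnab1, also passed 1.5-fold, where 1.34% of all did.

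The balance of higher and lower genes, and how the members stood against all genes, depended on how the arrays were scaled. When arrays were scaled by their median instead of by quantiles, 5 members were higher and 9 lower, and 30% of all tested probes passed. Without any normalization between arrays 0 members were higher and 15 lower, and 57.7% of all tested probes passed, so the members' share was above that of all probes under neither scaling. The median change of all probes was -0.09 with median scaling and -0.25 without normalization. Relative to that median, 37 of the 52 members were above and 15 below under both. These counts had to be equal, since median scaling shifts all probes of an array by the same amount. Median scaling ended the calls of Kcnk3 (0.22, adjusted p = 0.0675), Kcnip3 (0.05, adjusted p = 0.576) and Kcnmb4 (0.087, adjusted p = 0.31), and gave smaller changes for Kcnc1, Kcnf1 and Kcnab2 (0.24, 0.24 and 0.23), which passed. Without normalization none of the 8 risen genes passed. Kcnip3 and Kcnmb4 were then at -0.11 and -0.07, or 0.14 and 0.18 relative to the median of all probes. Kcnc1, Kcnf1, Kcnab2 and Kcnk3 were at 0.09, 0.08, 0.07 and 0.07 (adjusted p of 0.398 to 0.555), Kcnab1 at 0.16 and Kcnip4 at 0.27. The 5 fallen genes passed under both scalings, at -0.72 to -0.53 without normalization. Without CON 4 and CON 8, 12 members were higher and 6 lower where 20.3% of all tested probes passed, and all 13 genes named above still passed. Both are CON arrays with marker sums nearer to those of LUN, so their removal is no independent check. Without LUN 1 and LUN 7, the arrays with the most choroid plexus signal, 4 were higher and 4 lower where 9.54% of all tested probes passed. Kcnh1, Kcnip3, Kcnip4, Kcnk3 and Kcnmb4 then no longer passed, at adjusted p of 0.0534 to 0.109.

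**Figure D1:**
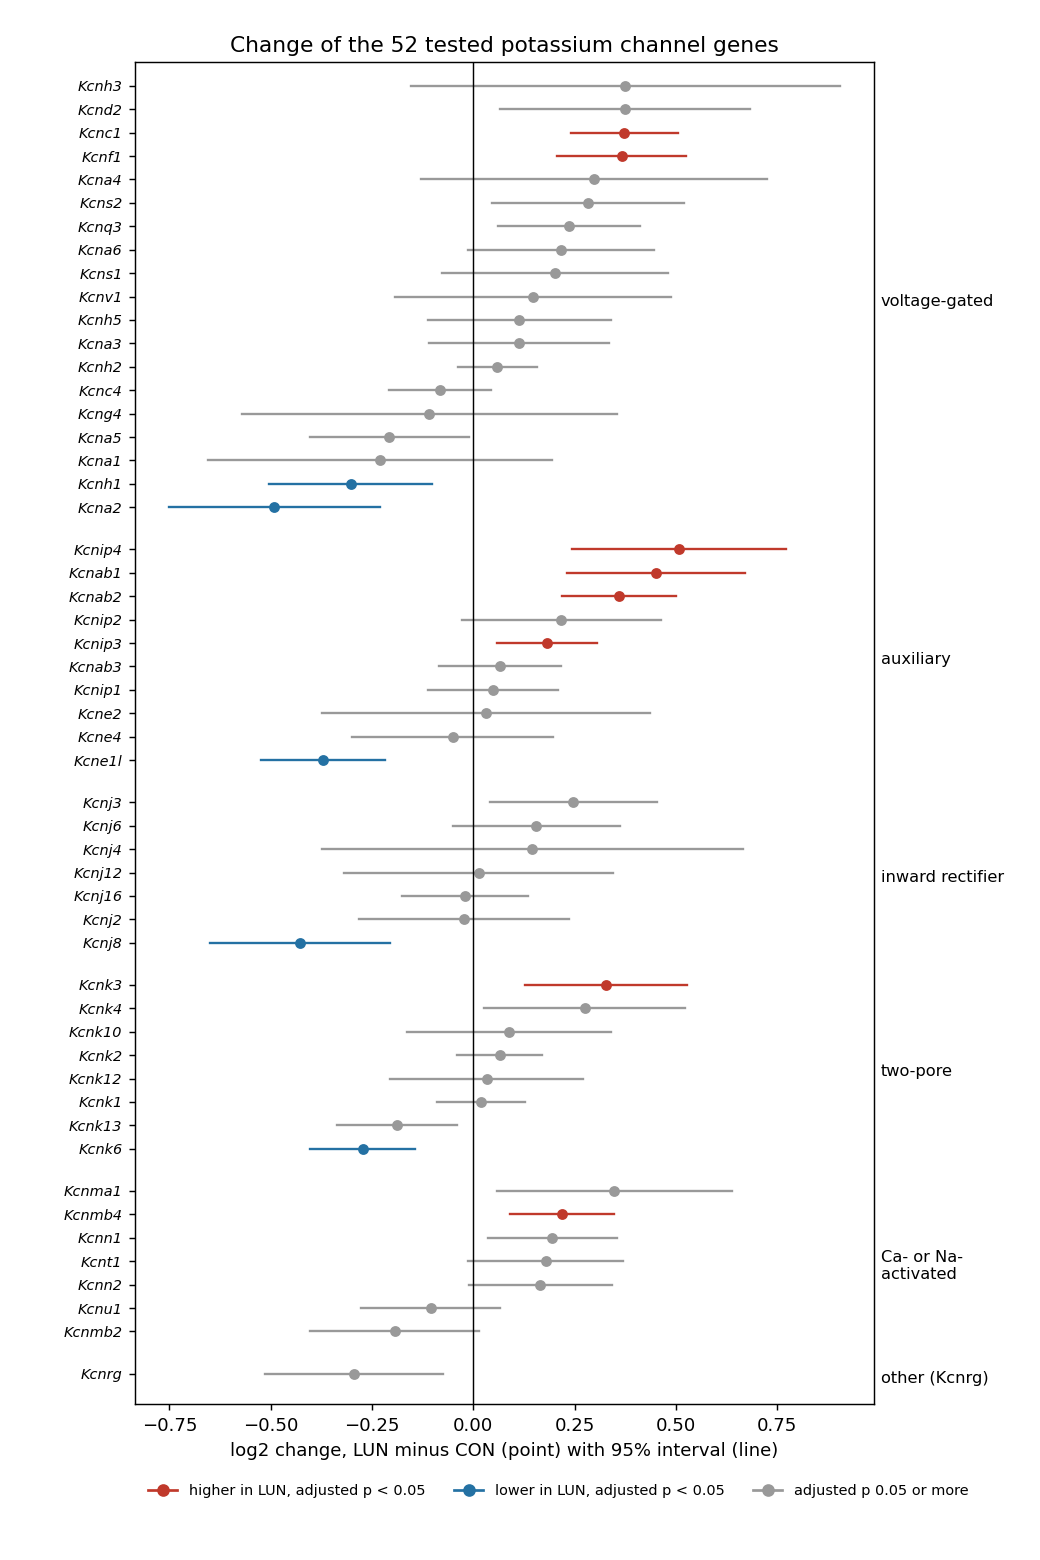
Log2 change (LUN minus CON, x axis) of each of the 52 tested potassium channel genes with its 95% interval, grouped by channel class. Red genes were higher in LUN and blue genes lower at an adjusted p under 0.05 (8 and 5 genes), grey genes did not pass, and Kcnip3 and Kcnmb4 changed sign when arrays were not normalized to each other.

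Promoter windows of 2 genes that rose and 2 that fell are printed to show the sequence upstream of channels that moved. Of the 52 tested genes 41 had a window of the 250 bases before the gene's start in the RefSeq annotation of GRCm38.p6, 60 windows in all, and 11 of the 13 genes past the threshold had one. The windows, printed 5′ to 3′ on the strand of the gene for genes with a single window, are those of Kcnc1 at chr7:46396218-46396467 (plus strand) and Kcnf1 at chr12:17176889-17177138 (minus strand), both higher in LUN, and of Kcna2 at chr3:107101317-107101566 (plus strand) and Kcnj8 at chr6:142571615-142571864 (minus strand), both lower. Capitals mark GC boxes, the letters GGGCGG on either strand.
Kcnc1: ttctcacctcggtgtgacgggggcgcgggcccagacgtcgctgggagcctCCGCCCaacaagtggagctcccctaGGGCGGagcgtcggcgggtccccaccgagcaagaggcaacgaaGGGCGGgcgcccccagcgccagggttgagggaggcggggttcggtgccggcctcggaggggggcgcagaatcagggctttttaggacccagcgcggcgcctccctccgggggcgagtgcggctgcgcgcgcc
Kcnf1: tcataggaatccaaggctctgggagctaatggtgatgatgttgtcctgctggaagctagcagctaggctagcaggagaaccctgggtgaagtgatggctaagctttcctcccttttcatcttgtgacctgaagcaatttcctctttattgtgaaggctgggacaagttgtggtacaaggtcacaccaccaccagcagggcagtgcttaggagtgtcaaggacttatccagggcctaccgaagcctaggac
Kcna2: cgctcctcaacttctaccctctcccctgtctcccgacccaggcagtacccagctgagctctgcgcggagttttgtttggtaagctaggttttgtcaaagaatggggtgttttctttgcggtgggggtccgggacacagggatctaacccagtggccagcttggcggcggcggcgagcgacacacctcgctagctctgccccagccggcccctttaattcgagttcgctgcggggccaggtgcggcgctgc
Kcnj8: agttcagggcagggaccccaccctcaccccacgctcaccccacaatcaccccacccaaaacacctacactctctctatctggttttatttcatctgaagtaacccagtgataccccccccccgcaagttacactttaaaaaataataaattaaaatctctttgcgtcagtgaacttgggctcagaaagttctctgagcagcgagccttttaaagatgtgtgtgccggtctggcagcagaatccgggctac

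The window of Kcnc1 was 74.4% G and C with 30 CpG pairs and 3 GC boxes. That of Kcnf1, which changed by nearly the same amount, was 51.2% G and C with 1 CpG pair and no GC box. The windows of the fallen genes Kcna2 and Kcnj8 had 62.4% and 49.2% G and C and 18 and 6 CpG pairs, with no GC box. Over the windows of all tested members a GC box was present in 27 of 60, where 32.7% of all 32851 windows held one. The E box CACGTG (either strand) was in 4 of the 60 and in 6.02% of all windows, the TATA box TATAAA (strand of the gene) in 1 and in 7.59%, and the cAMP response element TGACGTCA (either strand) in none and in 1.55%. Median G and C content was 59% over the members' windows and 52.4% over all. The members' windows are of tested genes only, while all windows include genes that were not tested, so the sets are unlike. A match of letters is a description of the window and not a site in use.

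Among the voltage-gated channels 19 of 32 genes were tested, of which 2 rose, 2 fell and 15 did not pass, with a median change of 0.15. Kcnc1 encodes Kv3.1, a fast delayed rectifier that lets neurons fire at high rates. On LUN arrays its lowest, median and highest values were 9.64, 9.69 and 9.86, and on CON arrays 9.09, 9.33 and 9.58. Every LUN array lay above every CON array, with a change of 0.37 (SE 0.063, adjusted p = 0.00122). A second, dimmer Kcnc1 probe, detected on 6 LUN and 3 CON arrays, changed by 0.07 (adjusted p = 0.602). Kcnf1 encodes Kv5.1, a subunit that is silent alone and modifies channels of the Kv2 family. Its values were 8.97, 9.37 and 9.61 on LUN arrays and 8.87, 8.95 and 9.21 on CON arrays, so that 7 of 8 LUN arrays were above all CON arrays, and LUN 8 lay within the CON range. The change was 0.37 (SE 0.076, adjusted p = 0.00418).

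Kcna2 and Kcnh1 fell. Kcna2 encodes Kv1.2, an axonal channel that opens at low thresholds and clusters beside the nodes of myelinated fibres. Its lowest, median and highest values were 6.09, 6.43 and 6.74 in LUN and 6.35, 6.98 and 7.35 in CON, with a change of -0.49 (SE 0.124, adjusted p = 0.0129). All 8 LUN arrays were below the CON median, but CON 1 and CON 3 lay among the LUN arrays. CON 4 and CON 8, at 7.03 and 6.82, lay above all LUN arrays for this gene. Also, 2 of 9 tested oligodendrocyte genes fell, with summed signals of 69337 to 79830 in LUN and 68823 to 84655 in CON, and their part in the result was not tested. In the genome order of GRCm38.p6 Kcna2 stands between Kcna3, which changed by 0.11 (adjusted p = 0.512), and Kcna10, which was not tested. The other Kv1 cluster of neighbours, Kcna5, Kcna1 and Kcna6, had changes of -0.21, -0.23 and 0.22, none of which passed. Kcnh1, an ether-a-go-go channel, had 8.07, 8.44 and 8.59 in LUN and 8.36, 8.75 and 9.05 in CON, a change of -0.30 (SE 0.096, adjusted p = 0.0408) that was -0.12 on BeadChip 1 and -0.49 on BeadChip 2. Kcnh1 no longer passed when any 1 of CON 1, 3, 5, 6 and 7 or LUN 1, 5, 6, 7 and 8 was left out (adjusted p of 0.0526 to 0.0782, change of -0.31 to -0.25).

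Of the 39 members that did not pass, Kcnh3, Kcnd2 and Kcnma1 had the 3 largest differences. Kcnh3, of the ether-a-go-go superfamily, differed by 0.38 (SE 0.252, adjusted p = 0.338) with within-group SDs of 0.52 in LUN and 0.61 in CON. Kcnd2 encodes Kv4.2, the pore of a transient current in dendrites, and differed by 0.37 (SE 0.147, adjusted p = 0.095). Without CON 4 it was 0.47 (adjusted p = 0.0199), and without LUN 8 0.46 (adjusted p = 0.0258). The other voltage-gated genes that did not pass were Kcna1, Kcna3, Kcna4, Kcna5, Kcna6, Kcnc4, Kcng4, Kcnh2, Kcnh5, Kcnq3, Kcns1, Kcns2 and Kcnv1, with differences between -0.23 for Kcna1 and 0.30 for Kcna4. Nearest to the threshold among them was Kcnq3, a subunit of the M-current, at 0.24 (SE 0.083, adjusted p = 0.0645), which passed when CON 3, LUN 2 or LUN 3 was left out (adjusted p of 0.02 to 0.0453). Kcns2, at 0.28, passed without LUN 3 (0.36, adjusted p = 0.019), and Kcna5 without CON 4 and CON 8 (-0.30, adjusted p = 0.0221).

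**Figure D2:**
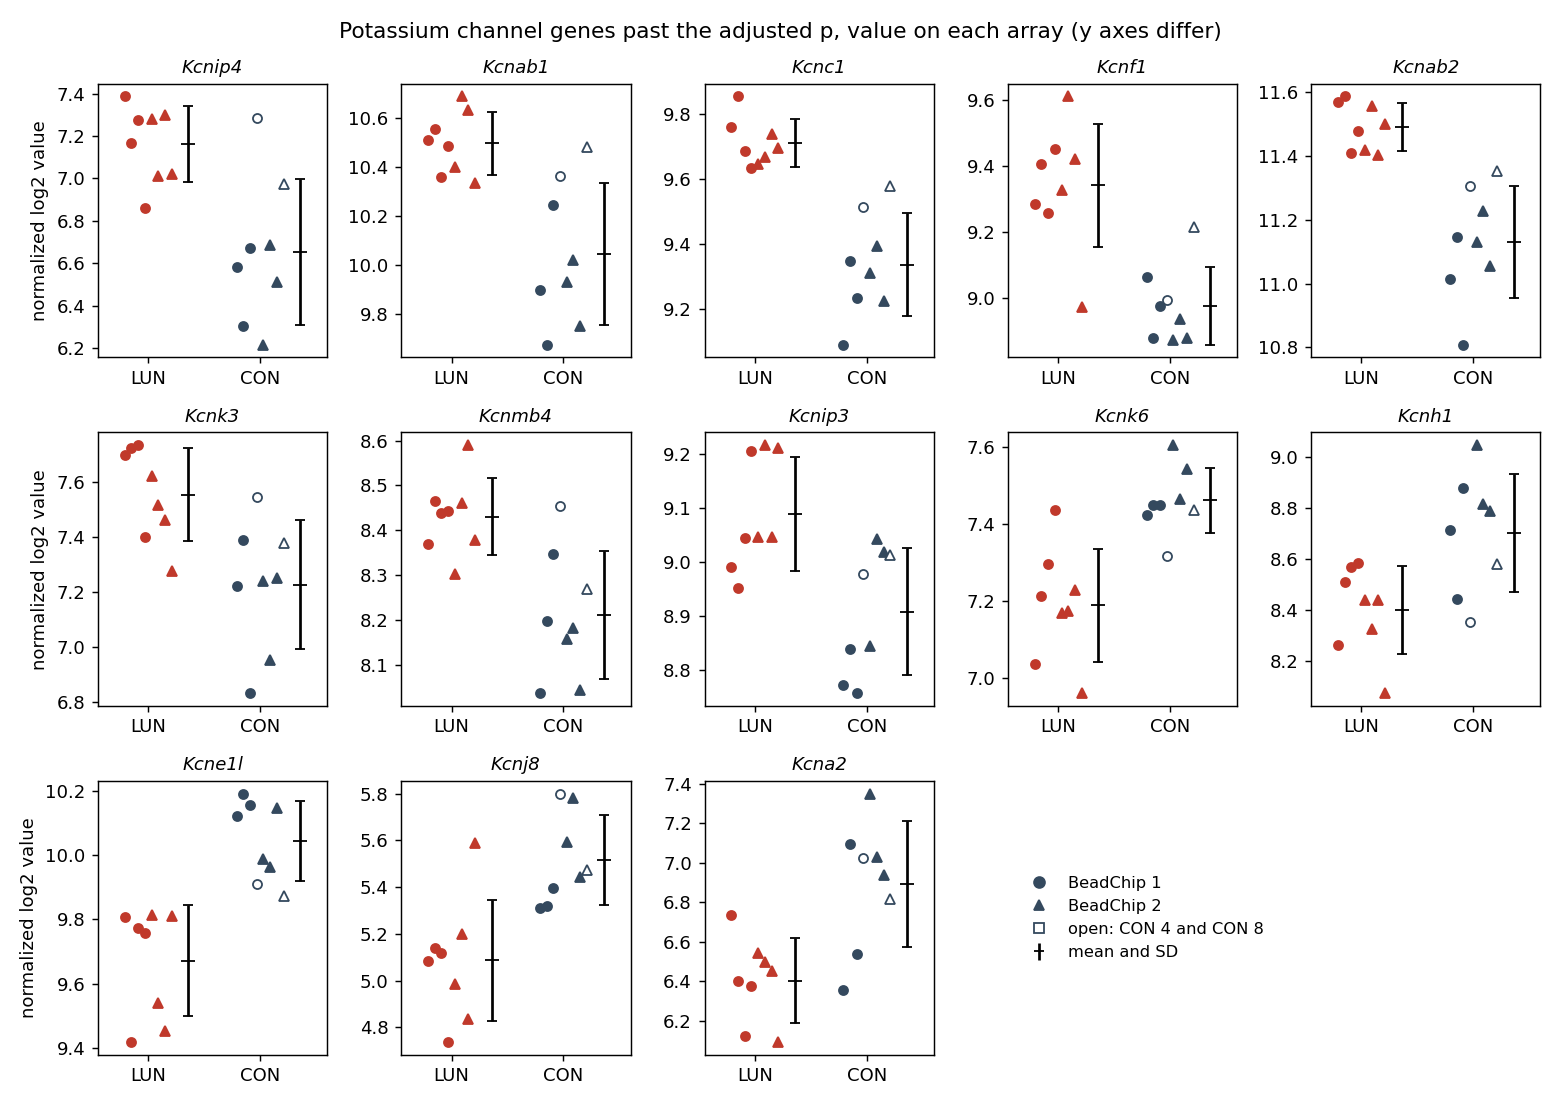
Normalized log2 value (y axes differ) of the 13 potassium channel genes past the adjusted p on each LUN and CON array, with the mean and SD of each group (n = 8). Circles are arrays of BeadChip 1, triangles those of BeadChip 2, and open symbols CON 4 and CON 8, which lay at the top of CON for Kcnc1, Kcnab1, Kcnab2 and Kcnip4. Kcnip3 and Kcnmb4 changed sign when arrays were not normalized to each other.

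Among auxiliary subunits 10 of 12 genes were tested, of which 4 rose, 1 fell and 5 did not pass, with a median change of 0.12. Kcnab1 and Kcnab2 encode cytoplasmic beta subunits of Kv1 channels, and Kvbeta1 is known to speed their inactivation. For Kcnab2 the lowest, median and highest values were 11.40, 11.49 and 11.59 in LUN and 10.81, 11.14 and 11.35 in CON. No LUN array fell within the CON range, and the change was 0.36 (SE 0.067, adjusted p = 0.00229). Kcnab1 had 3 tested probes, and all of them rose. The brightest had 10.33, 10.50 and 10.69 in LUN and 9.67, 9.97 and 10.48 in CON, a change of 0.45 (SE 0.104, adjusted p = 0.00779), with CON 4 and CON 8, at 10.36 and 10.48, among the LUN arrays. The second probe changed by 0.49 (adjusted p = 0.0128). The dimmest had 6.15, 6.31 and 6.51 in LUN and 5.07, 5.64 and 6.35 in CON, a change of 0.63 (SE 0.139, adjusted p = 0.00581) or 1.55-fold. The third beta subunit gene, Kcnab3, differed by 0.07 and did not pass.

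The 4 tested Kcnip genes, which encode calcium-binding proteins that attach to Kv4 channels, all had values above 0, and 2 passed. Kcnip4 changed by 0.51 (SE 0.126, adjusted p = 0.0115), with 6.86, 7.22 and 7.39 in LUN and 6.22, 6.63 and 7.28 in CON. CON 4 and CON 8 had its highest CON values, 7.28 and 6.97, and without them its change was 0.67 (adjusted p = 0.000179). Kcnip3, also known as a calcium-dependent repressor of transcription, changed by 0.18 (SE 0.059, adjusted p = 0.0455), and by -0.11 without normalization between arrays. It no longer passed when any 1 of CON 1, 2, 3 and 5 or LUN 3, 4, 5, 6, 7 and 8 was left out (adjusted p of 0.0546 to 0.0875, change of 0.16 to 0.19). Kcnip1 and Kcnip2 differed by 0.05 and 0.22 and did not pass. Kcne1l, an X-linked gene of the family of small membrane-spanning KCNE subunits, was the auxiliary gene that fell. Its values were 9.42, 9.77 and 9.81 in LUN and 9.87, 10.05 and 10.19 in CON, with every LUN array below every CON array and a change of -0.37 (SE 0.073, adjusted p = 0.00307). CON 8 and CON 4 were its lowest CON arrays. Kcne2 and Kcne4, of the same family, differed by 0.03 and -0.05 and did not pass.

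Among inward rectifiers 7 of 12 genes were tested, and Kcnj8 alone passed. It encodes Kir6.1, the pore of the ATP-sensitive channel of vascular smooth muscle and pericytes. Its lowest, median and highest values were 4.74, 5.10 and 5.59 in LUN and 5.31, 5.46 and 5.80 in CON. The probe was dim and was detected on 6 LUN and 8 CON arrays. All LUN arrays except LUN 8 lay below every CON array, and the change was -0.43 (SE 0.105, adjusted p = 0.0111). For this dim probe the size depended on the background step. It was -0.19 with an offset of 50 added after subtracting each array's lowest signal, in place of the background correction used above. With the signals as given it was -0.21 and in the deposited values -0.81. Each of these passed the adjusted p. Abcc9, its neighbour in the genome, encodes SUR2, the regulatory partner of Kir6.1. Abcc9 averaged 5.69 ± 0.19 in LUN and 5.88 ± 0.17 in CON (SD, n = 8 each), a difference of -0.19 (SE 0.086, adjusted p = 0.153). Of 7 tested mural cell markers Vtn and Higd1b fell, both by 0.38, and Rgs5, Pdgfrb, Notch3, Acta2 and Myh11 did not pass. The summed signal of the 7 genes was 1672 to 2390 in LUN and 1928 to 3915 in CON. Of 11 meningeal and fibroblast markers 8 fell, with sums of 3705 to 4663 in LUN and 4342 to 7612 in CON. The part of either list in the fall of Kcnj8 was not tested. Both Kcnj8 and Abcc9 are named in the study's tables.

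The other 6 tested inward rectifiers did not pass. Kcnj3 and Kcnj6, which encode subunits of the G protein-gated channels opened by inhibitory receptors, differed by 0.25 (SE 0.098, adjusted p = 0.0983) and 0.16 (SE 0.098, adjusted p = 0.304). Without CON 8 Kcnj3 passed at 0.30 (adjusted p = 0.034). Kcnj2, Kcnj4, Kcnj12 and Kcnj16 lay between -0.02 and 0.15. Of these, Kcnj4 had values from 6.42 to 7.96 in LUN and from 5.96 to 7.55 in CON, so that its spread within each group was wider than the difference.

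Among two-pore channels, which carry background current, 8 of 13 genes were tested and 1 passed in each direction. Kcnk3 encodes TASK-1, an acid-sensitive background channel. Its values were 7.28, 7.57 and 7.73 in LUN and 6.83, 7.25 and 7.54 in CON, with 4 LUN arrays above all CON arrays and a change of 0.33 (SE 0.095, adjusted p = 0.0266). It no longer passed when CON 6, LUN 1, LUN 2 or LUN 3 was left out (adjusted p of 0.0517 to 0.0559, change of 0.29 to 0.31) or with either other scaling given above. Kcnk6 encodes TWIK-2. It had 6.96, 7.19 and 7.44 in LUN and 7.32, 7.45 and 7.60 in CON, with 7 of 8 LUN arrays below every CON array and a change of -0.27 (SE 0.062, adjusted p = 0.0071). The difference was -0.16 on BeadChip 1 and -0.38 on BeadChip 2. A dimmer Kcnk6 probe differed by -0.14 and did not pass (adjusted p = 0.24). Kcnk1, Kcnk2, Kcnk4, Kcnk10, Kcnk12 and Kcnk13 did not pass, with differences from -0.19 for Kcnk13 to 0.27 for Kcnk4. The intervals of Kcnk1 and Kcnk2, -0.09 to 0.13 and -0.04 to 0.17, were among the narrowest of the members.

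The class of calcium- or sodium-activated channels was made from symbols and not from how each channel opens. Of its 10 genes 7 were tested and Kcnmb4 passed. It encodes the beta 4 subunit of the large-conductance (BK) channel, which in neurons slows its opening. Kcnmb4 had 8.30, 8.44 and 8.59 in LUN and 8.04, 8.19 and 8.45 in CON, a change of 0.22 (SE 0.061, adjusted p = 0.0209), and changed by -0.07 without normalization between arrays. The highest CON value was that of CON 4, at 8.45. Its other 2 tested probes differed by 0.31 (adjusted p = 0.012) and 0.20 (adjusted p = 0.0682). Kcnma1, the pore of the same channel, differed by 0.35 (SE 0.138, adjusted p = 0.0985), and by 0.44 without CON 4 (adjusted p = 0.0187) and 0.43 without LUN 8 (adjusted p = 0.0336). The small-conductance channel genes Kcnn1 and Kcnn2, which act in the afterhyperpolarization that follows spikes, differed by 0.20 and 0.17, and the sodium-activated Kcnt1 by 0.18. Kcnmb2 and Kcnu1 differed by -0.19 and -0.11. None of these passed on all arrays, and Kcnn1 did without CON 8 (0.23, adjusted p = 0.0359) or without LUN 2 (0.23, adjusted p = 0.0463). Kcnrg, a gene of a soluble protein whose human counterpart binds voltage-gated subunits, differed by -0.29 (SE 0.104, adjusted p = 0.0656), and passed without CON 1 (-0.34, adjusted p = 0.0407) or LUN 6 (-0.34, adjusted p = 0.0449).

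**Figure D3:**
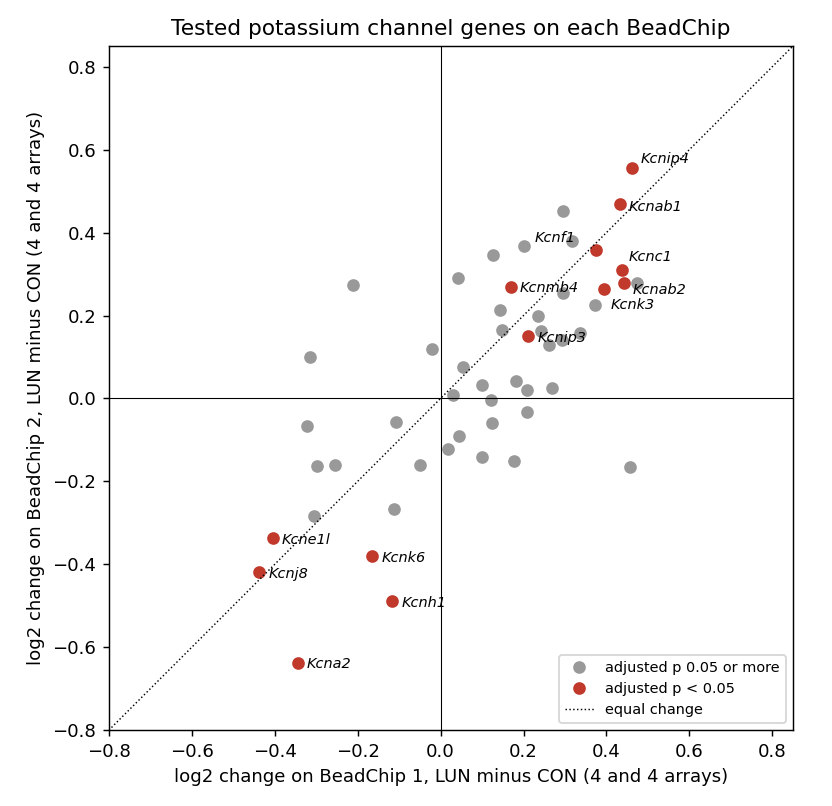
Log2 change (LUN minus CON) of the 52 tested potassium channel genes on BeadChip 2 (y axis) against BeadChip 1 (x axis), each from 4 LUN and 4 CON arrays. Red points are the 13 genes past the adjusted p, all of the same sign on both BeadChips, and 11 of the 39 grey genes have opposite signs. Kcnip3 and Kcnmb4 changed sign when arrays were not normalized to each other.

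The BeadChips each held 4 mice of either group. The 13 genes were chosen on all arrays, so their equal sign on both is a description. The change was closest to equal for Kcnf1 (0.37 on BeadChip 1 and 0.36 on BeadChip 2), Kcnj8 (-0.44 and -0.42) and Kcnab1 (0.43 and 0.47), and least so for Kcnh1, Kcna2 (-0.34 and -0.64) and Kcnk6. On either BeadChip alone no member passed the adjusted p by limma, where 0.0538% and 1.31% of all tested probes did. At an unadjusted p under 0.05 there were 12 and 17 members. The share of all genes at that limit was not counted within a BeadChip, so these counts are no result about the members.

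CON 4 and CON 8 also stood apart within the channel genes. Of the 8 risen genes CON 4 lay above the other 6 CON arrays in 6 and CON 8 in 5. Averaged over these 8 genes, the deviation from each gene's mean was 0.06 to 0.23 on LUN arrays, 0.07 on CON 4, 0.05 on CON 8 and -0.28 to -0.18 on the other CON arrays. Of the 5 fallen genes CON 4 lay below the other 6 CON arrays in 3 (Kcne1l, Kcnh1 and Kcnk6) and CON 8 in 1 (Kcne1l), while CON 4 was the highest CON array for Kcnj8. Averaged over the 5 genes, the deviation was -0.25 to -0.15 on LUN arrays, 0.14 on CON 4, 0.10 on CON 8 and 0.05 to 0.38 on the other CON arrays. With the marker scores (the mean deviation of a list's genes on an array), the thalamic list had 0.33 to 0.72 on LUN arrays, 0.74 on CON 4, 0.30 on CON 8 and -1.31 to -0.30 on the other CON arrays. The hypothalamic list had -0.46 to 0.03 on LUN arrays, -0.26 on CON 4, -0.19 on CON 8 and 0.27 to 0.52 on the other CON arrays. The 8 risen genes were chosen for being higher in LUN, so likeness to a list that was higher in LUN follows from the choice. The part of either list in the change of the channel genes was not tested. With both arrays left out, the groups of Kcnab1 and Kcnip4 were separate in addition to those of Kcnab2, Kcnc1 and Kcne1l, 5 of 52 members, where 7.22% of all tested genes were separate, and Kcnip4 passed 1.5-fold. Leaving out arrays can only add to the genes whose groups are separate, so this is no independent check.

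**Figure D4:**
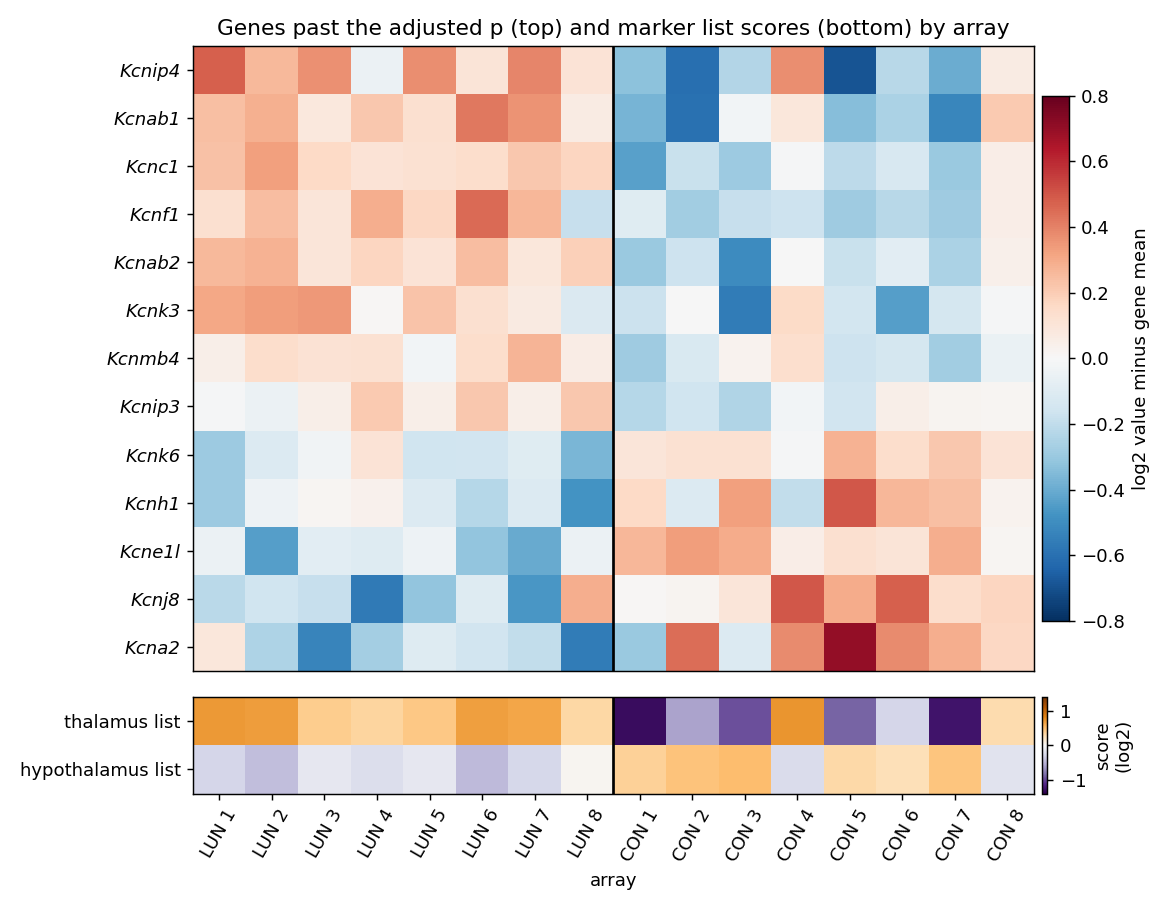
Deviation of each array from the gene's mean (log2, colour) for the 13 genes past the adjusted p, above the scores of the thalamic and hypothalamic marker lists on the same arrays. CON 4 and CON 8 resembled the LUN arrays in the thalamic score (0.74 and 0.30), in the hypothalamic score (-0.26 and -0.19) and in most risen genes. In the fallen genes CON 4 lay below the other 6 CON arrays in 3 of 5 and CON 8 in 1. Kcnip3 and Kcnmb4 changed sign when arrays were not normalized to each other.

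The remaining 28 members were not tested. No probe was detected on any array for 19 of them. Kcna7, Kcna10, Kcnd1, Kcnd3, Kcng1, Kcng3, Kcnh4, Kcnh6, Kcnh7, Kcnq1, Kcnq5, Kcns3 and Kcnv2 were voltage-gated, Kcne1 and Kcne3 auxiliary, Kcnj1, Kcnj5, Kcnj9, Kcnj14 and Kcnj15 inward rectifiers, Kcnk5, Kcnk7, Kcnk9, Kcnk15 and Kcnk18 two-pore channels, and Kcnmb1, Kcnn3 and Kcnn4 calcium-activated. The other 9 were detected on 1 to 7 arrays, most often Kcnk5, which encodes TASK-2 and had a probe detected on 2 LUN and 5 CON arrays. A gene that was not detected may still be expressed below the limit of the array.

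Proteins that bind potassium channels were described from a list of 27, of which 20 were tested, 4 rose and none fell, with a median change of 0.11, where 7.17% of all tested genes were higher and 8.59% lower. Dlg4 encodes PSD-95, a scaffold that clusters Kv1 and Kir2 channels and glutamate receptors at synapses. It averaged 6.36 ± 0.25 in LUN and 5.72 ± 0.39 in CON (SD, n = 8 each), a change of 0.64 (SE 0.147, adjusted p = 0.00763). It is named in the study's tables, which were drawn from these same arrays, so its place among the 4 is not independent evidence. Dlg2, the related scaffold PSD-93, changed by 0.24 (adjusted p = 0.0201), Dpp10, a Kv4 partner, by 0.21 (adjusted p = 0.0264) and Calm3, a calmodulin gene, by 0.18 (adjusted p = 0.013). Dpp6, the other Kv4 partner of this family, differed by -0.08, and the axonal Kv1 partners Cntnap2 and Lgi1 by 0.03 and 0.08, without passing. The mean score of the list was 0.01 to 0.08 on LUN arrays, 0.04 on both CON 4 and CON 8, and at or below 0 on the other CON arrays. Of 10 pump and cotransporter genes that move potassium across the membrane 5 were tested and none passed by limma, with differences from -0.08 for Slc12a2 to 0.11 for Slc12a5 and the lowest adjusted p 0.286, and 0 had an unadjusted p under 0.05.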

How the data were processed

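The 16 arrays (Illumina MouseRef-8 v2, hypothalamus, 1 mouse each) were grouped as LUN or CON by their labels. The deposited intensities are the authors' GenomeStudio bead signals, which by their values are neither background-subtracted nor normalized between arrays. The deposited detection p-values set each signal against the negative controls of its array. The deposited log2 values are the authors' quantile-normalized GeneSpring values, centred on each probe's median. Precision is limited by the number of arrays.

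Of 25697 probes 23978 carried 1 gene symbol of the platform annotation, 1719 none, and 23962 matched the RefSeq gene table by Entrez ID. Intensities were processed with neqc of limma 3.58.1 in R 4.3.3 (background from the detection p-values, offset 16) and tested with lmFit and eBayes, group as the only term, two-sided. The fit was tested on simulated data. Probe filter, adjustment and choice of probe are given above. Every gene past the adjusted p was named. Given in full were Kcna2, Kcnab1 and Kcnj8, which the study's tables name, and in each class the 2 genes with the lowest adjusted p, and of the genes that missed the 3 with the largest change were given with values. Kcnh1, Kcnip4, Kcnip3, Kcnq3, Kcnj3, Kcnj4 and Kcnrg, and genes whose call changed without 1 array, were described further after their values were seen. The members, classes, marker lists and partner lists were chosen with earlier results of these data known. Marker lists not mentioned above had these counts of higher and lower genes: habenula 0 and 0 of 3 tested, cortex and hippocampus 1 and 0 of 5, striatum 0 and 0 of 4, neurons 1 and 0 of 5, astrocytes 2 and 4 of 9, oligodendrocyte precursors 0 and 0 of 3, microglia 1 and 1 of 8, endothelium 2 and 0 of 7, choroid plexus 0 and 0 of 6, red cells 0 and 5 of 5, and pituitary 0 and 0 of 1. Alternatives covered the detection filter, scaling, the background step with its offset, deposited values, the methods' t-test, array weights, blocks, the choice of probe and left-out arrays. Leaving out LUN 1 and LUN 7 was chosen after seeing the data. CON 4 and CON 8 had thalamic and hypothalamic marker sums nearer to those of LUN, so leaving them out is no independent check.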

Additional observations from a re-analysis of the deposited data

Results flagged for a closer look

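The 52 tested genes were examined in each group, 104 sets of 8 values, for a single array whose gap to its nearest neighbour exceeded the critical value of 0.526 of the group's range in Dixon's test. Chance flags about 1 in 20 such sets, and 4 were flagged. None of these 4 genes passed the test between groups.

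Kcne2, a KCNE subunit, had 6.32 on LUN 7, where the other LUN arrays had 4.65 to 5.24. LUN 7 also had the highest summed signal of choroid plexus genes, 20257. Kcnab3 had 7.51 on LUN 8 and 7.06 to 7.27 on the other LUN arrays. Kcns2, a silent modifier of Kv2 channels, had 5.97 on LUN 3 and 6.47 to 6.89 on the others. Kcnu1 had 6.73 on CON 4 and 7.06 to 7.35 on the other CON arrays.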

How the results depend on the processing

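Against 8 genes higher, 5 lower and 0 at 1.5-fold, scaling by the median gave 5 higher and 9 lower, no normalization between arrays 0, 15 and 3, and either BeadChip alone 0 and 0. At 1.5-fold there were 3 with the deposited log2 values and 1 each without CON 4 and CON 8 or by each gene's dimmest probe. Without LUN 1 and LUN 7 there were 4 higher. With 1 array left out there were 7 to 10 higher, 4 to 5 lower and 0 to 1 at 1.5-fold, where 12.3% to 17.2% of all tested probes passed. The single array behind that 1 was CON 4. The other counts stayed within 1.5 times. The methods' t-test, run on the values normalized here, gave 21 genes unadjusted and 12 after Benjamini-Hochberg adjustment. After adjustment 14.6% of all tested probes passed by that test, and their unadjusted share was not counted. Of 441 values of the 13 genes under the alternatives, 365 kept their direction and passed, 74 kept the direction without passing, and 2 reversed. Those 2 were Kcnip3 at -0.11 and Kcnmb4 at -0.069 without normalization between arrays. Many alternatives reuse the same values or nearly the same arrays, and the choice of probe cannot alter a gene with a single tested probe. The counts are therefore not independent checks. Kcnh1 and Kcnip3 each passed in 17 of 34 alternatives, Kcnk3 in 24 and Kcnmb4 in 28. The cause was not tested.

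Same-numbered LUN and CON arrays shared a BeadChip and correlated between -0.29 and 0.10 in their deviations from the group means. This does not exclude a pairing, and none was stated in the sources used here. With a replicate block 7 genes were higher, 4 lower and 0 at 1.5-fold, where 11.5% of all tested probes passed. Kcnh1 and Kcnk3 then no longer passed. Dim probes such as those of Kcnj8 lie near the background, where small differences are least certain.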
